A study of Homo sapiens with 4 samples.

Results

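The small ribosomal subunit protein genes were taken as every gene whose symbol in the deposited gene list reads RPS followed by a number, with or without a closing A, X or L, or reads RPSA. This gave 32 of the 36601 genes listed, RPS27L, the paralog of RPS27, included, and the RPS6 kinase genes left out. The rule reads names only and no measured value, although it was set with earlier results of these data known. All 32 had a mean of at least 10 UMIs per 1000000 (CPM) over the libraries, a level that 8507 of all genes reached.

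BEAS-2B, an immortalized line derived from human bronchial epithelium, was measured as control cells without radiation and after 10 mGy, 100 mGy or 1 Gy from a Cs-137 gamma-ray source, with 1 single-cell library for each. A droplet kit that reads the 3′ ends of polyadenylated RNA was used, which labels every cell with a barcode and every captured molecule with a unique molecular identifier (UMI). As 1 captured molecule gives 1 UMI whatever its length, levels of different genes are compared in CPM of the pooled UMIs of a library, without division by length. Each dose has 1 library and no replicate, no test between doses was possible, dose and library cannot be told apart, and every interval below is an exact 95% interval that covers counting error only.

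The libraries held 11111 to 21514 barcodes and 211752280 to 285806026 UMIs. In each library 19.6% to 41.4% of the barcodes, the most at 10 mGy, had under the library's median UMI count divided by 3. These low-UMI barcodes held 2.16% to 5.40% of the UMIs and were kept, as were possible doublets. Any pair of libraries shared 76 to 134 barcodes, at most 0.864% of a library. Of 8 epithelial markers, KRT7, KRT8, KRT18 and KRT17 were above 10 CPM in every library, while KRT5 and CDH1 stayed under 1 CPM. Of 6 mesenchymal markers, VIM, FN1, CDH2, COL1A1 and SPARC were above 10 CPM in every library. FN1 and CDH2 were lower in both low-dose libraries, where FN1 had 623 and 640.1 CPM against 1546 in the control and 1466 at 1 Gy, and the sum of the list ran from 3340.4 to 4685 CPM. COL1A1 was also lower there, at 20.5 and 21.1 CPM against 25.6 in the control and 25.5 at 1 Gy. The epithelial markers did not move together. KRT17 and KRT18 were higher there, KRT17 with 106 and 97.8 CPM against 76.1 and 65.8, and KRT18 with 258 and 306 against 236 and 219. KRT7, the most abundant of the list, was lower there, with 501 and 589 CPM against 645 and 594. KRT8 had 254 and 249 CPM against 273 and 245. The sum of the epithelial list ran from 1123 CPM at 10 mGy to 1244 at 100 mGy. The part of these shifts in the results was not tested. Of the leukocyte markers PTPRC, CD3E and LYZ stayed under 1 CPM and CD68 lay between 7.02 and 10.8 CPM, and the endothelial markers PECAM1, VWF and CDH5 and the red cell markers HBB and HBA1 stayed under 1 CPM.

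The small subunit of the ribosome binds messenger RNA, scans it for the start codon and holds the codon against the transfer RNA. It is built from a ribosomal RNA and a set of proteins, each present in a single copy, so the genes of these proteins are known for high and coordinated expression. Many of their messenger RNAs begin with a run of pyrimidines, the terminal oligopyrimidine (TOP) motif, through which their translation follows nutrient and growth signals.

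The first bases of the transcripts show this motif, and they are given because its presence divides the members by something that no count entered. In the RefSeq promoter table for GRCh38.p14, 25 of the 32 members had a start site. The deposited files hold no coordinates and the submitters' processing notes name GRCh37, so the positions below are those of RefSeq. Each line gives 10 bases before and 20 bases from the annotated start, 5′ to 3′ on the transcript's strand, with the unbroken run of C and T that holds the start in capitals where the start lies in one of at least 5.
RPS12, chr6:132814559-132814588, plus strand: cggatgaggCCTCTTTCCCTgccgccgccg
RPS6, chr9:19380217-19380246, minus strand: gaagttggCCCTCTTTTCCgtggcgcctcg
RPS23, chr5:82278335-82278364, minus strand: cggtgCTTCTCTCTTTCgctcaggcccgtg
RPSA, chr3:39406710-39406739, plus strand: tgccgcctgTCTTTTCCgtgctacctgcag
RPS28, chr19:8321486-8321515, plus strand: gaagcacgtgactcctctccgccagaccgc
RPS27L, chr15:63157458-63157487, minus strand: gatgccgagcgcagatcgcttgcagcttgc
At the listed start, RPS12, RPS6, RPS23 and RPSA lie inside a pyrimidine run, and RPS28 and RPS27L do not. In RPS28 the listed start is an A, and a run of C and T begins at the next base. Whether a member holds the motif thus depends on the exact base listed as its start. With the motif searched as C at the start followed by at least 4 more C or T, on the transcript's strand only, 18 of the 25 members held it at a listed start (72%), against 5.14% of the 27305 genes in the table and 29 of 42 large subunit genes (69.0%). Counted by start sites, 18 of the members' 28 held it (64.3%), against 4.07% of all 35116 starts. The 7 without it at their listed start were RPS15, RPS26, RPS27L, RPS28, RPS29, RPS4X and RPS7, of which RPS7 starts inside a pyrimidine run that ends too soon after the start.

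The small subunit genes took a larger share of all UMIs at the 2 low doses than in the control or at 1 Gy. Together they held 5.84% of the UMIs in control cells (5.84 to 5.85), 8.42% after 10 mGy (8.41 to 8.42), 9.33% after 100 mGy (9.33 to 9.34) and 5.86% after 1 Gy (5.86 to 5.86). The control and 1 Gy were close to each other, although their counting intervals did not overlap.

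The share per barcode was also higher in both low-dose libraries. Over all barcodes its median was 5.84% in control cells, 8.54% after 10 mGy, 9.33% after 100 mGy and 5.99% after 1 Gy. The control and 1 Gy changed places by a small amount once the low-UMI barcodes were left out. Without the low-UMI barcodes, the median barcode held 5.81% of its UMIs in these genes in control cells, 8.33% after 10 mGy, 9.26% after 100 mGy and 5.79% after 1 Gy. Of the barcodes at 10 mGy 99.7% lay above the control median, as did 99.97% at 100 mGy and 49.1% at 1 Gy. The shift thus covered nearly every barcode above the low-UMI limit in both low-dose libraries, and dose and library cannot be told apart in it. In the low-UMI barcodes the pooled share was 5.92% in control cells, 8.77% after 10 mGy, 9.37% after 100 mGy and 6.78% after 1 Gy. There the 1 Gy library stood above the control, and 11 members were over 1.2-fold higher at 1 Gy than in the low-UMI barcodes of the control and 0 were lower, against 10.9% of all genes higher and 17.7% lower.

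**Figure D1:**
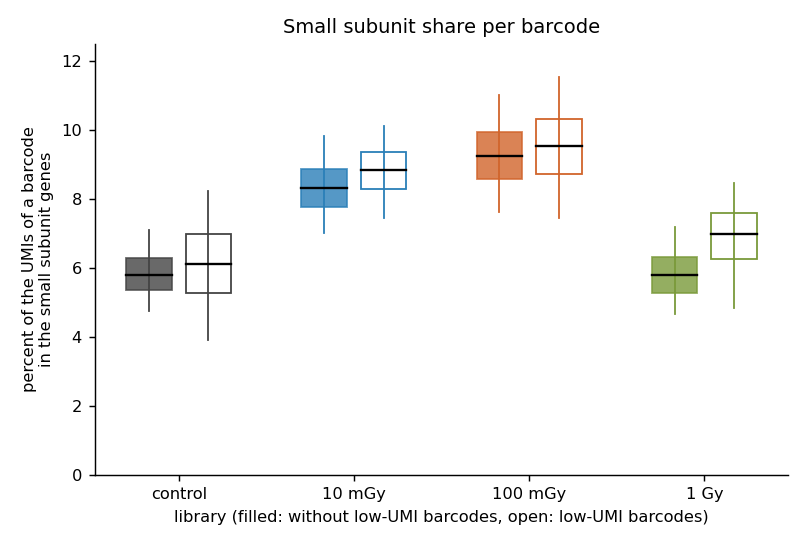
Percent of a barcode's UMIs that fall in the 32 small subunit genes (y axis), by library (x axis), for barcodes above the low-UMI limit (filled) and low-UMI barcodes (open). Boxes span the quartiles, the black line is the median and the thin line runs from the 5th to the 95th percentile of barcodes; the filled medians are 5.81, 8.33, 9.26 and 5.79%.

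Gene by gene, 30 of the 32 members were over 1.2-fold higher than the control at 10 mGy and 30 at 100 mGy, and 0 were over 1.2-fold lower at either dose. Among all 8507 genes, 15.4% were over 1.2-fold higher at 10 mGy and 53% over 1.2-fold lower, and at 100 mGy 14% were higher and 58.9% lower. Past 1.5-fold, 17 members were higher at 10 mGy and 24 at 100 mGy, against 4.94% and 5.04% of all genes. The median ratio of the members to the control was 1.52 at 10 mGy and 1.70 at 100 mGy, where the median of all genes was 0.810 and 0.766. The members are abundant genes, and among the 1779 genes with a mean of at least 100 CPM, 30.7% were over 1.2-fold higher and 37.1% lower at 10 mGy, and 30.9% higher and 39% lower at 100 mGy. At 1 Gy 0 members passed 1.2-fold in either direction and their median ratio was 1.02, with 1.28% of all genes over 1.2-fold higher, 0.846% over 1.2-fold lower and a median of 1.01. Relative to counting error alone, 20 members lay above the control at 1 Gy, 11 below it, and RPS15 at a ratio of 1.00, where 40.1% of all genes lay above and 30.2% below. Abundant genes have narrower intervals, so these 2 sets of calls are not alike. Without regard to intervals, 21 members and 4784 of the 8507 genes had a ratio above 1.

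These ratios are shares of a library and not amounts per cell. The mean UMI count of a barcode was 19153 in control cells, 13285 after 10 mGy, 12254 after 100 mGy and 13653 after 1 Gy. In unscaled UMIs per barcode the small subunit genes summed to 1119 in control cells, 1118 after 10 mGy, 1144 after 100 mGy and 800.1 after 1 Gy. On that scale 5 members at 10 mGy and 9 at 100 mGy were over 1.2-fold higher than the control, 2 and 4 were over 1.2-fold lower, and at 1 Gy all 32 were over 1.2-fold lower. Of all 8507 genes on this scale, 1.62% were higher and 84.6% lower at 10 mGy, 1.02% higher and 90.1% lower at 100 mGy, and 0% higher and 97.2% lower at 1 Gy, so that the members at 1 Gy went with nearly all genes. Without the low-UMI barcodes, the unscaled counts were 28 higher and 0 lower at 10 mGy and 17 higher and 2 lower at 100 mGy, against 10.5% higher and 62% lower, and 2.37% higher and 85% lower, of all genes. The UMI count per barcode moved with the libraries, and its part in the result was not tested.

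**Figure D2:**
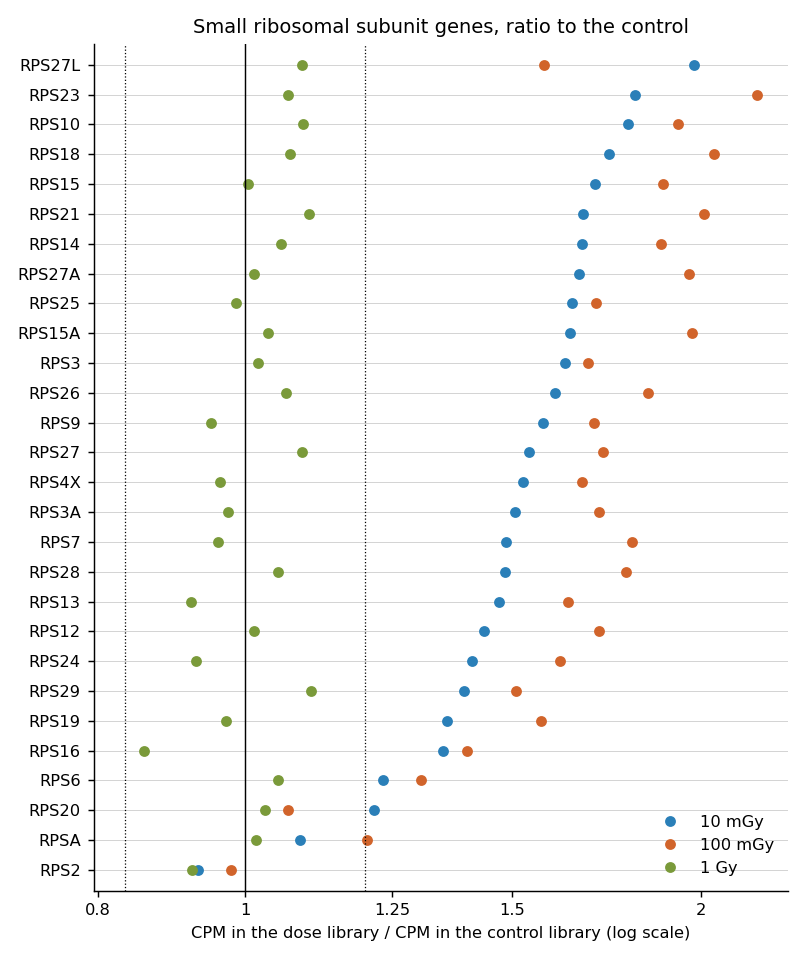
Ratio of CPM in each dose library to the control (x axis, log scale) for 28 small subunit genes (y axis, ordered by the ratio at 10 mGy), with blue for 10 mGy, orange for 100 mGy and green for 1 Gy. The solid line marks a ratio of 1 and the dotted lines 1.2-fold; the green points stay between 0.858 and 1.11, while all blue and orange points except those of RPS2, RPSA at 10 mGy and RPS20 at 100 mGy lie past the upper dotted line.

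The ratios at 100 mGy were mostly above those at 10 mGy. Compared directly, the 100 mGy library had 5 members over 1.2-fold higher than the 10 mGy library and 1, RPS27L, over 1.2-fold lower, where 1.35% of all genes were higher and 12.7% lower. The 5 were only just past the threshold, between 1.201 and 1.212, and the intervals of RPS15A, RPS28 and RPS21 held 1.2. The level was highest at 100 mGy for 27 of the 32 members, against 12.9% of all genes, and at 10 mGy for 4, RPS20 and RPS27L among them. RPS2 was the 1 member with its highest level in the control. In 31 of the 32 both low doses lay above both the control and 1 Gy, which 20.7% of all genes did. The 10 mGy and 100 mGy ratios share the control library. In the pair of comparisons without a common library, 10 mGy over the control had a median ratio of 1.52 and 100 mGy over 1 Gy one of 1.73.

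Levels within the subunit spanned a wide range even though each of its proteins is present in a single copy. For RPS27L equal numbers cannot be assumed, since it and RPS27 encode 2 forms of eS27. RPS27L was the lowest member in every library except 10 mGy, where RPS10 was lowest. In the control RPS10 was next above it, at 425 CPM. In the control the range was 393 CPM for RPS27L to 5848 CPM for RPS2, with a median over the members of 1691 CPM. The highest member was 14.9 times the lowest in the control, 7.17 times at 10 mGy, 9.25 times at 100 mGy and 12.6 times at 1 Gy. RPS2 stayed first and RPS19 second in every library. Counting error was at most 0.680% of a member's CPM, so few neighbours in the order of levels could not be told apart, for example RPS27 and RPS23 in the control. Members with many processed pseudogenes are less certain, since reads of near-identical copies can be lost or moved in alignment. GENCODE 29 names 74 pseudogenes after RPSA, 38 after RPS3A, 32 after RPS29, 30 after RPS26, 23 each after RPS15A and RPS4X and 20 after RPS2, against 3 after RPS28.

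RPS2 (ENSG00000140988), which encodes uS5 at the channel where messenger RNA enters the subunit, was the one member that did not share the pattern in CPM. Its level was 5848 CPM in control cells, 5447 after 10 mGy, 5723 after 100 mGy and 5392 after 1 Gy. The ratio to the control was 0.932 (0.929 to 0.934), 0.979 (0.976 to 0.981) and 0.922 (0.920 to 0.924). With the libraries scaled by the median ratio over all genes, RPS2 was at 1.15, 1.28 and 0.902, so at 10 mGy and 100 mGy its direction turned with the scaling. In unscaled UMIs per barcode RPS2 had 112.0 in control cells, 72.4 after 10 mGy, 70.1 after 100 mGy and 73.6 after 1 Gy. Without the low-UMI barcodes these values were 136.7, 117.4, 94.7 and 96.4. On that scale RPS2 thus lay below the control in every dose library.

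RPS28 (ENSG00000233927), which encodes eS28 near the messenger RNA exit, was among the most abundant members and changed order with the dose. It had 2674 CPM in control cells, 3969 after 10 mGy, 4773 after 100 mGy and 2809 after 1 Gy, and stood 5th, 4th, 3rd and 4th among the members. Both low-dose levels lay above the other libraries, at 1.48 (1.48 to 1.49) and 1.79 (1.78 to 1.79) times the control. In unscaled UMIs per barcode the differences at the low doses were smaller, with 51.2 in control cells, 52.7 after 10 mGy, 58.5 after 100 mGy and 38.3 after 1 Gy. Without the low-UMI barcodes these values were 62.4, 85.2, 78.7 and 49.9.

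The ratio of RPS28 to RPS2 within a library does not depend on how libraries are scaled. There were 0.457 RPS28 UMIs per RPS2 UMI in control cells (0.456 to 0.459), 0.729 after 10 mGy (0.727 to 0.730), 0.834 after 100 mGy (0.832 to 0.836) and 0.521 after 1 Gy (0.519 to 0.523). In the median barcode without low UMIs, RPS28 made up 31.2% of the UMIs of the pair in control cells (quartiles 28.2 to 34.4), 42.0% after 10 mGy (38.7 to 45.5), 45.4% after 100 mGy (41.7 to 49.2) and 34.1% after 1 Gy (30.5 to 37.6). The quartile ranges of the control did not overlap those of the low doses, and did overlap that of 1 Gy.

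**Figure D3:**
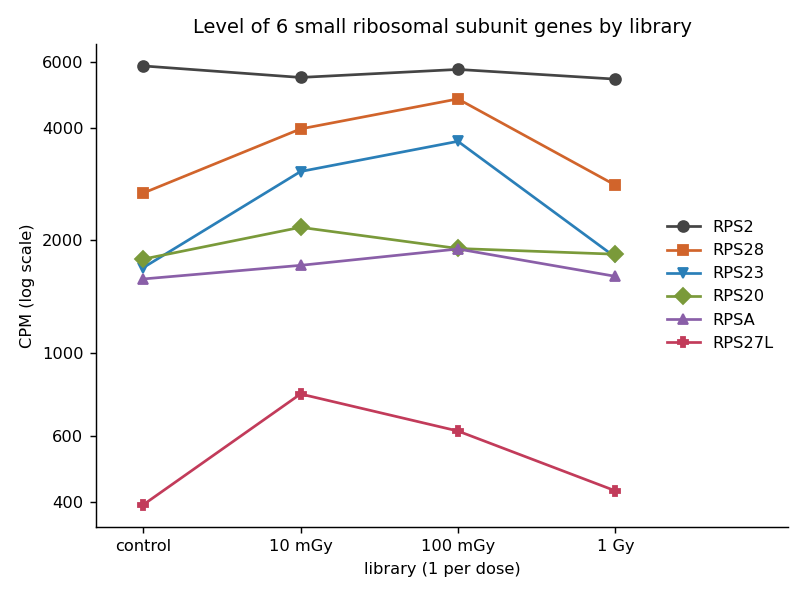
Level of 6 small subunit genes in CPM (y axis, log scale) in each of the 4 libraries (x axis); points are single libraries and counting error is smaller than the symbols. RPS2 stays between 5392 and 5848 CPM, RPS28 and RPS23 peak at 100 mGy, and RPS20 and RPS27L peak at 10 mGy.

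The other proteins along the entry channel did follow the pattern. RPS3, which encodes uS3 and also has a known part in DNA repair, had 1449 CPM in control cells, 2358 after 10 mGy, 2442 after 100 mGy and 1477 after 1 Gy. RPS9, which encodes uS4, had 1098, 1726, 1864 and 1043 CPM in the same order. Their ratios at 10 mGy were 1.63 and 1.57, where RPS2, their neighbour in the subunit, was at 0.932.

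Proteins that reach the decoding site and the transfer RNAs had some of the largest ratios and also one of the smaller ones. RPS23, which encodes uS12 at the decoding site, had 1690 CPM (1684 to 1695) in control cells, 3054 after 10 mGy, 3677 after 100 mGy and 1804 after 1 Gy. RPS18, which encodes uS13 in the head, had 2232, 3880.1, 4553 and 2389 CPM. RPS15, which encodes uS19, had 2143, 3645, 4041 and 2151 CPM, and was the 1 member whose interval at 1 Gy held a ratio of 1. RPS16, which encodes uS9, whose tail touches the transfer RNA, had 2539, 3430.3, 3559 and 2178 CPM. It was the lowest member at 1 Gy relative to the control, at 0.858 (0.855 to 0.861), and stood at 1.35 and 1.40 at the low doses.

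Of the other proteins near the exit of the messenger RNA, RPS14 (uS11), which is deleted in a form of myelodysplastic syndrome, was at 1.67 and 1.88 times the control at the low doses. RPS26 (eS26) was at 1.60 and 1.85, and RPS3A (eS1), a contact of the initiation factor eIF3, at 1.51 and 1.71. RPSA, which encodes uS2 and is also known as the laminin receptor precursor, was lower than these, with 1577 CPM in control cells, 1714 after 10 mGy, 1896 after 100 mGy and 1602 after 1 Gy. Its ratio was 1.09 at 10 mGy and 1.203 at 100 mGy, where it only just passed the threshold, and in barcodes of 10000 to under 20000 UMIs it was 1.18 and did not.

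Among the remaining proteins of the head, RPS20 went apart from the others. RPS20, which encodes uS10 and is ubiquitinated together with RPS10 when ribosomes collide, had 1781 CPM in control cells, 2166 after 10 mGy, 1902 after 100 mGy and 1836 after 1 Gy. The ratio was 1.22 (1.21 to 1.22) at 10 mGy, 1.07 (1.06 to 1.07) at 100 mGy and 1.03 (1.03 to 1.04) at 1 Gy. Without the low-UMI barcodes it was 1.1999 at 10 mGy, just under the threshold. Over the alternative settings other than unscaled UMIs, the ratio ran from 1.1999 to 1.62 at 10 mGy. At 100 mGy it ran from 1.06 to 1.39 over the same settings, so there too the side of the threshold depended on the setting. RPS10 itself, which encodes eS10, had 425, 759.9, 819 and 464 CPM, with ratios of 1.79 and 1.93 at the low doses. Reads that run from RPS10 into NUDT3 are listed as a gene of their own, with 149 to 255 UMIs in a library, and do not enter this count.

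Within a library, RPS20 and RPS23 exchanged places. There were 1.05 RPS20 UMIs per RPS23 UMI in control cells, 0.709 after 10 mGy, 0.517 after 100 mGy and 1.02 after 1 Gy. In the median barcode, RPS20 held 51.8% of the UMIs of this pair in control cells, 41.7% after 10 mGy, 34.6% after 100 mGy and 50.9% after 1 Gy.

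The rest of the head lay between RPS20 and RPS10 in its ratio at 10 mGy. RPS27A, whose product is ubiquitin fused to eS31, was at 1.66 and 1.96 times the control at the low doses, and RPS25 (eS25), needed for initiation on internal ribosome entry sites, at 1.64 and 1.70. RPS12 (eS12) was at 1.44 and 1.71. RPS19 (eS19), the gene most often mutated in Diamond-Blackfan anaemia, had 3423 CPM in control cells, 4655 after 10 mGy, 5368 after 100 mGy and 3326 after 1 Gy, a ratio of 1.36 and 1.57. RPS29 (uS14) stood at 1.39 and 1.51 and was the highest member at 1 Gy, at 1.11.

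In the body of the subunit, RPS6 showed one of the smallest differences. RPS6 encodes eS6, the protein phosphorylated by the S6 kinases. It had 1723 CPM in control cells, 2124 after 10 mGy, 2250.1 after 100 mGy and 1810.3 after 1 Gy, with ratios of 1.23 and 1.31. Over the alternative settings other than unscaled UMIs, its lowest ratios were 1.17 at 10 mGy and 1.16 at 100 mGy, under the threshold. RPS7 (eS7), which is known to bind MDM2, had 1510 CPM, 2243, 2719 and 1449, and the highest ratio of 100 mGy over 10 mGy, 1.21. RPS21 (eS21) was at 1.67 and 2.01 times the control, RPS15A (uS8) at 1.64 and 1.97, and RPS4X (eS4), encoded on the X chromosome, at 1.53 and 1.67. RPS13 (uS15), on the side that faces the large subunit, was at 1.47 and 1.63, and RPS24 (eS24) at 1.41 and 1.61.

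RPS27 and RPS27L (ENSG00000185088) encode 2 forms of eS27, and RPS27L is a known target of p53. Their coding sequences are given since the members moved apart, and they show how far the copies differ. The kit reads 3′ ends, so these sequences alone do not settle how well its reads tell the copies apart. In the transcripts used, 62 bases follow the coding sequence in RPS27 and 5782 in RPS27L. The coding sequences are written in transcript order from GENCODE 29 on GRCh38, with the 56 bases that differ in capitals.
RPS27, chromosome 1: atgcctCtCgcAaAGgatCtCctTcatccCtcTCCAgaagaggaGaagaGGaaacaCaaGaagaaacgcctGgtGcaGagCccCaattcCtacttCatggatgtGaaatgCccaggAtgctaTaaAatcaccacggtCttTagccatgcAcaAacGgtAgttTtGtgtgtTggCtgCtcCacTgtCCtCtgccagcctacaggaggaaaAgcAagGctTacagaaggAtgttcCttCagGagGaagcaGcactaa
RPS27L, chromosome 15: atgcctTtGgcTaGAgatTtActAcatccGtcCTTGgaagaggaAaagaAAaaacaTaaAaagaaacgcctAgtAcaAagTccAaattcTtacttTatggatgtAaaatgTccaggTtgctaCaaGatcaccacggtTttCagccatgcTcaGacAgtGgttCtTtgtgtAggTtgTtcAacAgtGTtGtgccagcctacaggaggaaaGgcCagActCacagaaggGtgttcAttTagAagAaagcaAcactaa
Both hold 255 bases, are 78.0% identical, differ in 48 of 85 codons and share no run longer than 20 bases. RPS27 had 1692 CPM in control cells, 2603 after 10 mGy, 2913 after 100 mGy and 1843 after 1 Gy. RPS27L had 393, 777, 619 and 428 CPM, so that it was the highest member at 10 mGy relative to the control, at 1.98 (1.96 to 1.99), and lower at 100 mGy, at 1.57 (1.56 to 1.59). There were 0.232 RPS27L UMIs per RPS27 UMI in control cells (0.230 to 0.234), 0.299 after 10 mGy (0.2971 to 0.2999), 0.212 after 100 mGy (0.211 to 0.214) and 0.232 after 1 Gy (0.231 to 0.234). The ratio of the pair thus lay above the interval of the control at 10 mGy, below it at 100 mGy and inside it at 1 Gy, and in single barcodes the quartile ranges of all libraries overlapped.

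**Figure D4:**
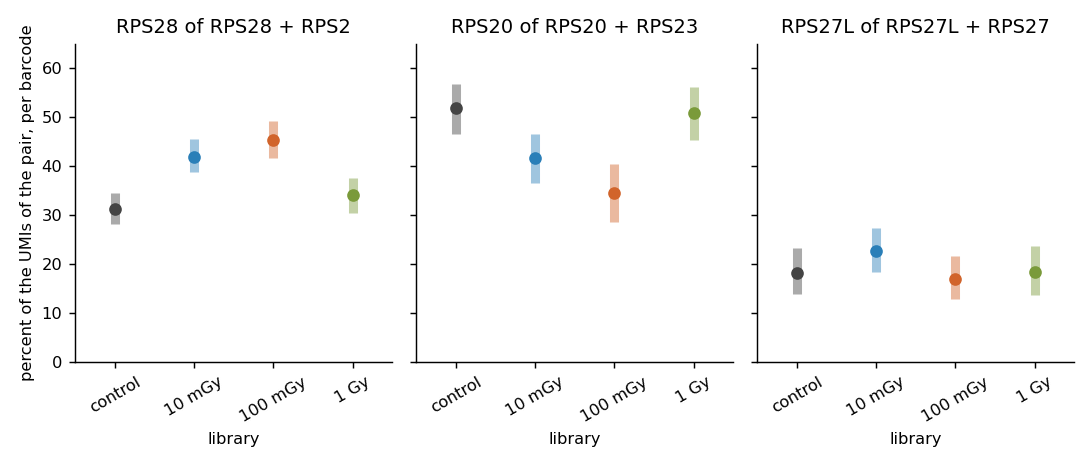
Percent of the UMIs of a gene pair that belong to the first gene (y axis) in barcodes above the low-UMI limit, for RPS28 with RPS2, RPS20 with RPS23, and RPS27L with RPS27, by library (x axis). Points are medians over barcodes and bars span the quartiles; RPS28 runs from 31.2% in the control to 45.4% at 100 mGy, RPS20 from 51.8% to 34.6%, and RPS27L stays between 16.9% and 22.6%.

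The composition of the subunit's messenger RNA therefore differed between libraries. RPS2 made up 10.0% of the small subunit UMIs in control cells, 6.47% after 10 mGy, 6.13% after 100 mGy and 9.20% after 1 Gy. RPS20 held 3.05%, 2.57%, 2.04% and 3.13%. RPS23 held 2.89%, 3.63%, 3.94% and 3.08%, and RPS18 held 3.82%, 4.61%, 4.88% and 4.08%. For these genes the shares at 1 Gy lay nearer to the control than to either low dose.

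The members were also compared by features that the names did not use. The 15 members with relatives in bacteria (uS) had a median ratio of 1.57 at 10 mGy and the 17 without (eS) one of 1.51, and at 100 mGy the medians were 1.68 and 1.71. The 14 proteins of the head had medians of 1.56 and 1.71 and the 18 of the body 1.52 and 1.68. The 18 members that held the motif as searched had a median ratio of 1.56 at 10 mGy and 1.71 at 100 mGy, and the 7 without it 1.53 and 1.79. This split rests on the exact base listed as the start, and RPS28 is among the 7. RPSA and RPS23, both printed above with the motif, stood at 1.09 and 1.81 at 10 mGy. Coding length was taken for the 29 members with a protein-coding transcript that carries the annotation's mark of a principal transcript. Across these, Spearman's rho between coding length and the ratio was -0.18 at 10 mGy and -0.16 at 100 mGy. Across 32 members rho with the number of pseudogenes was -0.36 and -0.11. With the level in the control, rho was -0.48 after 10 mGy, -0.23 after 100 mGy and -0.38 after 1 Gy, and this level is itself the denominator of each ratio. These describe members of the same libraries, which are not independent.

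The spread of each member over barcodes was compared at equal depth, after each barcode was thinned to 5000 UMIs. Shallower barcodes were dropped, 2051 in control cells, 8953 after 10 mGy, 5679 after 100 mGy and 3980 after 1 Gy. The spread beyond counting, the standard deviation left after the counting variance is taken off, had a median over the members of 18.6% of the mean in control cells, 15.1% after 10 mGy, 16.99% after 100 mGy and 18.9% after 1 Gy. RPS27L varied most in every library, at 35.3%, 28.0%, 32.3% and 27.2%. RPS23 stood at 24.7%, 20.1%, 21.3% and 21.6%. RPS20 stood at 14.0%, 14.6%, 21.6% and 14.6%, and was thus the least variable member in the control and the most variable after RPS27L at 100 mGy. RPS28 varied from 15.9% to 19.0% and RPS2 from 13.4% to 15.9%. The plain standard deviation over the mean, with every barcode and counting error included, was 34.9%, 39.5%, 51.9% and 41.7% for RPS20.

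**Figure D5:**
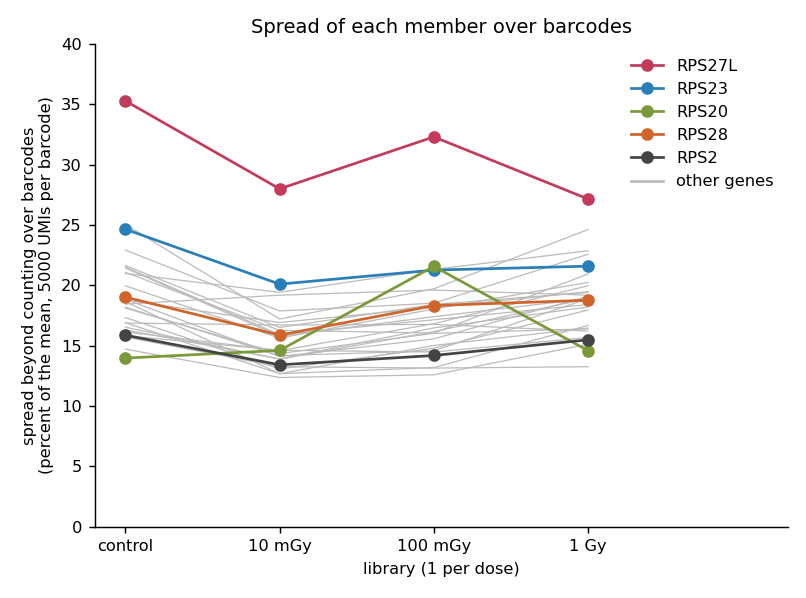
Spread beyond counting over barcodes thinned to 5000 UMIs, as percent of the mean (y axis), for 28 small subunit genes by library (x axis), with 5 genes coloured and the others grey. RPS27L lies above all others in each library, RPS23 runs from 24.7% in the control to 20.1% at 10 mGy, and RPS20 reaches 21.6% at 100 mGy.

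From barcode to barcode, the counts of a member had a low correlation with those of the others. The correlation of a member with the sum of the others, over thinned barcodes of 1 library that share the same fixed total, had a median of 0.30 in control cells, 0.26 after 10 mGy, 0.30 after 100 mGy and 0.31 after 1 Gy. It was highest for RPS19 in the control and at 1 Gy and for RPS12 at both low doses. It was lowest for RPS29 in the control, for RPS20 at 100 mGy and for RPS27L in the other libraries. Counting error lowers such values, and in control cells it had a median of 34.4% of the mean, beside 18.6% beyond counting. The correlations are thus a description only and do not measure how strongly the members vary together.

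Other genes of the ribosome and of initiation give the setting. FAU, whose product is a ubiquitin-like protein fused to eS30 of the small subunit, had 863 CPM in control cells, 1718 after 10 mGy, 2020.2 after 100 mGy and 946 after 1 Gy. RACK1, the signalling scaffold on the head, had 1177, 1605, 1591 and 1097 CPM, or 1.36 and 1.35 times the control at the low doses. Of 50 large subunit genes, 45 were over 1.2-fold higher at 10 mGy and 46 at 100 mGy, beside 15.4% and 14% of all genes. RPL10 at 1.79 and RPL39 at 1.70 were the highest at 10 mGy, and RPL7L1 at 0.689 and RPL4 at 0.989 the lowest. The median ratio of the 50 genes was 1.43 and 1.501, below that of the small subunit genes. There were 0.731 small subunit UMIs per large subunit UMI in control cells, 0.738 after 10 mGy, 0.760 after 100 mGy and 0.728 after 1 Gy.

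The factors that assemble the small subunit did not follow its protein genes. Of 58 assembly factors past the level of 10 CPM, 2 were over 1.2-fold higher and 39 over 1.2-fold lower at 10 mGy, and 3 and 33 at 100 mGy, with median ratios of 0.783 and 0.803 near those of all genes. SNU13, a box C/D protein that also serves the spliceosome, was highest at 10 mGy at 1.37, followed by IMP3 at 1.27. HEATR1 at 0.503 and DHX37 at 0.507 were lowest. Of 28 initiation factors, 6 were higher and 9 lower at 10 mGy, and 4 and 9 at 100 mGy, beside 15.4% higher and 53% lower, and 14% higher and 58.9% lower, of all genes. EIF3K at 1.93 and EIF3F at 1.29 were highest at 10 mGy, and EIF4G1, the scaffold of the cap-binding complex, at 0.502 and EIF4B at 0.526 were lowest. Mitochondrially encoded genes, which share the library total with the members, held 5.91% of the UMIs in control cells, 4.55% after 10 mGy, 4.40% after 100 mGy and 5.78% after 1 Gy, and the part of this shift in the result was not tested.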

How the data were processed

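Raw UMI counts by gene and by barcode were deposited by the authors for 4 libraries, without normalization. The file header names Cell Ranger 7.0.1, and the submitters' processing notes list Cell Ranger, STAR and GRCh37. Not given in the sources used here are the annotation, the barcode filter and any counting of intronic reads. Here UMIs were summed over all deposited barcodes of a library, divided by the library total (CPM) and set against the control. The floor was an average of 10 CPM across the libraries, and a gene was counted as higher or lower past 1.2-fold. Intervals are exact Poisson, binomial and conditional binomial intervals at 95%. Pair shares and spread used barcodes, which are not replicates. Doublets were kept and no doublet caller was run. Gene IDs matched GENCODE 29 for 94.6% of 36601 genes and for all 32 members. Values of 4 members are not reported singly here, and these genes are left out of the figures by gene, while counts, sums and medians hold all 32. The named genes were the other members, FAU and RACK1, and for each other list the 2 highest and 2 lowest ratios at 10 mGy. The members, the lists of other genes and the pairs were chosen with earlier results of these data known, and the grouping by channel and site was made after the values were seen. 1 of 61 listed assembly factors, SLX9, was not found by name, and 2 more were under 10 CPM. The calculation of ratios and spread was checked on simulated counts, with counting error alone for the ratios and without thinning for the spread. Such counts check the calculation and cannot show how well the intervals hold for these libraries. Scripts ran in Python 3.11.15 with scipy 1.17.1, numpy 2.4.6, matplotlib 3.10.9 and pandas 2.3.3. Alternatives in scaling, barcodes, depth, threshold and floor were computed, and the closing section gives their effect.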

Additional observations from a re-analysis of the deposited data

How the results depend on the processing

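No paired analysis was possible because each dose has 1 library. With 30 members over 1.2-fold higher after 10 mGy, 30 after 100 mGy and 0 after 1 Gy, the counts stayed within 29 to 32 at the low doses and at 0 at 1 Gy under the other scalings of library totals, the other floors, thinning and the other selections of barcodes, with 3 exceptions. Unscaled UMIs per barcode gave 5 at 10 mGy and 9 at 100 mGy, and together with leaving out the low-UMI barcodes (chosen after seeing the data) 17 at 100 mGy and 28 at 10 mGy. A threshold of 1.5-fold gave 17 at 10 mGy and 24 at 100 mGy, with 4.94% and 5.04% of all genes. The low-UMI barcodes alone (also chosen after seeing the data) gave 11 at 1 Gy. 

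The median log2 ratio of the members was 0.60 after 10 mGy, 0.77 after 100 mGy and 0.035 after 1 Gy. It was 0.63, 0.74 and 0.073 as a mean of scaled barcodes. Median ratio scaling, which lifts the median of all genes by 0.30 at 10 mGy and 0.38 at 100 mGy to near 0, gave 0.90, 1.15 and 0.0043. A total without mitochondrially encoded and ribosomal protein genes gave 0.69 and 0.88 at the low doses, and thinning 0.59 and 0.75. Unscaled UMIs gave 0.073, 0.12 and -0.45, and without low-UMI barcodes 0.48, 0.27 and -0.36. Barcodes of 10000 to under 20000 UMIs (chosen after seeing the data) gave 0.55, 0.69 and -0.0053, and low-UMI barcodes alone 0.66, 0.71 and 0.25. Less the median of all genes, the value was 0.90 at 10 mGy and 1.15 at 100 mGy, which no scaling of whole libraries can change. In the settings that changed the barcodes or weighted them equally it lay between 0.85 and 0.99 at 10 mGy and between 1.04 and 1.15 at 100 mGy.

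Of the members named in the text and past 1.2-fold, ratios changed sides of 1 only in unscaled UMIs per barcode. At 10 mGy these were RPS12 at 0.997, RPS20 at 0.844, RPS6 at 0.855, RPS24 at 0.979, RPS29 at 0.967, RPS16 at 0.937 and RPS19 at 0.943. At 100 mGy they were RPSA at 0.770, RPS6 at 0.836, RPS29 at 0.965 and RPS16 at 0.897, and without low-UMI barcodes RPSA at 0.850, RPS6 at 0.926 and RPS16 at 0.990. RPS2 is described with its own values. Depth leaves little counting error here, and the missing replicates limit every comparison.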
